A study of Homo sapiens with 18 samples.

Results

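Long intergenic non-coding RNAs were followed in C4-2B cells, a human castration-resistant prostate cancer line, after treatment with VIC-1911, an inhibitor of the mitotic kinase AURKA, and olaparib, an inhibitor of PARP enzymes. The transcripts are the 158 genes with a name of LINC and 5 digits that had at least 10 counts in at least 3 of the 12 libraries of 7 days, out of 515 genes with such a name in that count table and 21276 genes in all. Poly(A) RNA was sequenced from 6 groups of 3 libraries: DMSO vehicle and 0.1 μM VIC-1911 after 2 days, and DMSO vehicle, 0.1 μM VIC-1911, 1 μM olaparib and the combination of both drugs at these doses after 7 days. All 18 libraries came from the 1 line, which the labels give as wild type, and the labels do not say whether the 3 libraries of a group were separate cultures, so p-values measure the spread between these libraries, which may be technical. The design asks what each drug and the combination did against the vehicle of the same time point, and what the combination did beyond each drug.

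A long intergenic non-coding RNA is transcribed from its own locus between protein-coding genes, is usually capped, spliced and polyadenylated like an mRNA, and is as a rule expressed at a lower level than mRNAs. Some of these RNAs act on the gene beside them, some bind proteins or other RNAs in the nucleus or cytoplasm, and for most no function is established. The LINC number is a placeholder name, and a few loci that carried one were later found to encode a small protein. In the prostate several such transcripts respond to androgens, and others are direct targets of p53.

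The name did not always match an intergenic non-coding gene. In the RefSeq annotation of GRCh38.p14, 121 of the 158 genes matched by symbol and 37 by an older name. Of the 158, 146 are annotated as lncRNA, 11 as protein-coding and 1 as a transcribed pseudogene. Another tested gene overlaps 23 of them, and 14 share a near-identical stretch with another transcript, so reads of these genes may be split or shared. The genes were selected on their 7-day counts, so whether a gene reached the limit is no finding: LINC01509, LINC01029 and LINC00896 lay just inside the rule with a third-highest count of 10, and LINC00701, LINC01431 and LINC01588 lay just outside with a third-highest count of 9. LINC01133 and LINC01512 reached 10 counts in the vehicle libraries of 7 days alone, so they had to differ from vehicle at 7 days, and their calls, interaction values and time differences are a description. Of the transcripts called higher against vehicle at 7 days, LINC00844, LINC01356, LINC00920, LINC01164, LINC01134 and LINC01136 reached 10 counts in no vehicle library. The rule favoured a rise against vehicle in these, so their calls against vehicle and interaction values are a description as well. LINC01509 reached 10 counts with vehicle and VIC-1911 alone, so its falls with the combination are likewise a description. LINC01461 and LINC00669 reached 10 counts in no combination library, LINC01208 in no olaparib library and LINC01001 in no VIC-1911 library of 7 days. The falls in those groups, and the interaction value of LINC00669, are a description too. LINC01134 and LINC01001 are named after their values were seen.

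The promoters of 4 transcripts on which the results turn are printed from the RefSeq table of GRCh38.p14, 5′ to 3′ on the strand of the gene, from 250 bases before the start of the gene to 50 bases into it. Positions count from 1 at the start with no position 0, and give the leftmost base of a match. Capitals mark a motif found by a search of both strands. The motif is the p53 decamer (the unit that stands as a pair in p53 response elements) in LINC01021, AGAACA (the hexamer of steroid receptor elements) in LINC00844, TATAAA (the TATA box) in LINC00161 and CCAAT (the CCAAT box) in LINC01133. LINC01021 is shown for the factor its description names and LINC00844 for the hormone, LINC00161 as a transcript called higher in every comparison with vehicle, and LINC01133 as a transcript lower in every treated library of 7 days than in vehicle.
LINC01021, chr5:27472042-27472341, plus strand: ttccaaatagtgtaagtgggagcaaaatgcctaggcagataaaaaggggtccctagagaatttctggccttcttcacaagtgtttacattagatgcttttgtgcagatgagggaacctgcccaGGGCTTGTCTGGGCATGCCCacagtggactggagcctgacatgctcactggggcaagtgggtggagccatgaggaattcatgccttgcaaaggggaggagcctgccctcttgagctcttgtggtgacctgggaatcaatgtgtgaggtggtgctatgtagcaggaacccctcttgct
LINC00844, chr10:58999268-58999567, plus strand: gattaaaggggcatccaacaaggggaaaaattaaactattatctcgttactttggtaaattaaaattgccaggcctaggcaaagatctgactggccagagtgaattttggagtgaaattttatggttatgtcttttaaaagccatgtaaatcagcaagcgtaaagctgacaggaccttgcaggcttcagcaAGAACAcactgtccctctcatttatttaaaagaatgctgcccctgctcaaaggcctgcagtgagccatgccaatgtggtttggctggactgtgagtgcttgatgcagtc
LINC00161, chr21:28539068-28539367, plus strand: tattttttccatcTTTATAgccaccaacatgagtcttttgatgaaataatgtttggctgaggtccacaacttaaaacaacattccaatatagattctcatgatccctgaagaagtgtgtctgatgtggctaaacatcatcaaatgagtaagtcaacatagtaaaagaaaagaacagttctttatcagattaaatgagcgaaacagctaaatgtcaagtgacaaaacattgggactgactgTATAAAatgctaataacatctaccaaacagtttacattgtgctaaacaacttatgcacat
LINC01133, chr1:159960974-159961273, plus strand: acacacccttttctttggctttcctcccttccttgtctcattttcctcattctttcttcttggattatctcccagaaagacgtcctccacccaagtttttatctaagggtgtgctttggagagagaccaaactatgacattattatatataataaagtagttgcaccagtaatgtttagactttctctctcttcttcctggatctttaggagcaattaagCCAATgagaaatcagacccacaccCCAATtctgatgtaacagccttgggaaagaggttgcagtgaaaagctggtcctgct
In LINC01021 the p53 decamers start at -127 and -117 and adjoin each other. Of 27305 promoters in the table, 1786 held a p53 decamer, or 6.54%, and 5 held 2 adjoining decamers, or 0.0183%. A promoter was found for 119 of the 158 genes. Of these 119, 3 held a decamer (LINC00839, LINC01021 and LINC01060), or 2.52%, and LINC01021 was the 1 with an adjoining pair. AGAACA starts at -59 in LINC00844 and occurred in 20 of the 119 promoters (16.8%) and in 14.9% of all promoters. TATAAA starts at -237 and -10 in LINC00161, where the first match is on the minus strand, and occurred in 13 of 119 (10.9%) and in 12% of all. CCAAT starts at -30 and -6 in LINC01133 and occurred in 53 of 119 (44.5%) and in 35.7% of all. TTTGAA, the CHR element of cell cycle genes, occurred in 16 of 119 (13.4%) and in 15.4% of all, and TGATGNAA, the ATF4 composite element, in 4 of 119 (3.36%) and in 3.67% of all. Each printed promoter has 1 motif in capitals, and other matches of the search stand unmarked. LINC00161 also held AGAACA at -81, TGATGNAA at -212 and CCAAT at -167 and, on the minus strand, at -24. LINC01133 also held TGATGNAA at 2, and LINC00844 held CCAAT at 11. These matches describe the letters in the window and were not tested for use.

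The libraries held between 4967931 and 19684208 counts after 7 days and between 3245273 and 7184420 after 2 days. The 158 transcripts together took between 0.16% and 0.186% of the counts of a 7-day library and between 0.147% and 0.157% of those of a 2-day library. The cell line showed its luminal identity: KLK3, which encodes PSA, lay between 1244 and 2697 FPKM over the 18 libraries. FPKM, fragments scaled to transcript length and sequencing depth, is the scale on which levels are given here. The summed FPKM of the 9 luminal markers lay between 4388 and 4425 in vehicle and between 2899 and 3306 in the treated libraries of 7 days. Of the markers of other cells, KRT5 (of 3 basal markers), DCN (of 4 stroma markers) and CD3E (of 3 blood cell markers) were at 0 in all libraries, but KRT14, COL1A1 and CD68 of the same lists were not. In the vehicle and combination libraries of 7 days the summed FPKM lay between 1.40 and 1.59 and between 2.43 and 2.89 for the basal list, between 1.38 and 1.75 and between 1.93 and 2.27 for the stroma list, and between 6.11 and 6.91 and between 9.29 and 10.1 for the blood cell list, nearly all of it from these 3 genes. The 4 neuroendocrine markers summed to between 1.27 and 1.68 in vehicle and between 0.565 and 0.599 with the combination. The part of these markers in the results below was not tested. In bulk RNA, fewer cells with a transcript and less of it per cell cannot be told apart. The labels name no preparation or sequencing run, but their library numbers at 7 days form separate consecutive series, one with vehicle and VIC-1911 and one with olaparib and the combination. Whether the series were handled apart is not given, so in a comparison of olaparib or the combination with vehicle, or of the combination with VIC-1911, any difference between the series and the treatment cannot be told apart.

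Most of the 158 transcripts were low. Their median level over the 7-day libraries was 0.923 FPKM, against 5.97 FPKM for all 14409 genes tested, with a range from 0.072 to 72.2 FPKM. At least 1 FPKM was reached by 74 transcripts and at least 10 FPKM by 12, while 47 stayed under 0.5 FPKM. The 8 highest held 44.2% of the summed FPKM. Their median count per library was 32.8, against 355.8 for all genes tested, and 96 of the 158 had a mean under 50 counts. A total of 82 had at least 10 counts in every 7-day library and 11 in exactly 3. At 2 days 83 of the 158 had enough counts to be tested, among 12241 genes.

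None of the 8 highest transcripts was called against vehicle by the fold limits given below, though LINC00963, LINC00998 and LINC01278 changed in all 3 comparisons of 7 days at the adjusted p alone. LINC00657, known as NORAD, a cytoplasmic RNA that binds PUMILIO proteins and guards genome stability after DNA damage, had a mean of 68.0 ± 2.4 FPKM in vehicle, 71.5 ± 1.7 in VIC-1911, 75.1 ± 1.03 in olaparib and 74.3 ± 3.32 in the combination after 7 days (SD, n = 3). Its log2 fold change was 0.12 ± 0.04 (SE) for olaparib and for the combination (adjusted p = 0.016 for each, edgeR), a rise far under 2-fold. LINC00493, which encodes the mitochondrial microprotein SMIM26, was at 46.1 ± 0.351 FPKM in vehicle and fell by 0.25 ± 0.08 on the log2 scale with olaparib (adjusted p = 0.0088, edgeR). LINC00998, which encodes the membrane microprotein SMIM30 and is also among the 8 highest, had 22.7, 23.1 and 20.1 FPKM in the vehicle libraries of 7 days, 33.1, 31 and 33.1 with VIC-1911, 27, 28.4 and 28.4 with olaparib and 28, 26.8 and 27.6 with the combination. All treated libraries lay above all vehicle libraries, the VIC-1911 libraries highest. Its log2 fold changes were 0.50 ± 0.07, 0.32 ± 0.07 and 0.30 ± 0.07 (adjusted p = 2.4e-07, 2.0e-04 and 2.9e-04, edgeR), all under 2-fold.

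Of the other genes that encode small proteins, LINC01420 (NBDY, a component of P-bodies that bears on mRNA decapping) and LINC00116 (MTLN, mitoregulin of the inner mitochondrial membrane) did not pass the test against vehicle at either time. LINC01420 had means between 18.5 and 20.9 FPKM in the 4 groups of 7 days, with log2 fold changes from 0.00 to 0.22, and it overlaps UQCRBP1. LINC00116 had means between 8.36 and 10.3 FPKM and log2 fold changes from -0.11 to 0.13. So of the 4 tested genes of the small-protein list, 1 rose in all 3 comparisons of 7 days and 1 fell in 1 of them at an adjusted p under 0.05, and none reached 2-fold. LINC00961 and LINC00948, also on that list, did not have the counts to enter. LINC00665, at 24.2 FPKM over the 7-day libraries, had log2 fold changes from 0.04 to 0.09 and none passed the test, though it shares a stretch with LINC01535. LINC01578, known as CHASERR, a repressor in cis of its neighbour CHD2, fell by 0.17 ± 0.07 on the log2 scale with VIC-1911 at 7 days (adjusted p = 0.048, edgeR). LINC01278, at 13.6 FPKM, fell in all 3 comparisons by 0.29 to 0.36.

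LINC00963, described in the passage of prostate cancer cells to androgen-independent growth, fell in every comparison with vehicle. It had 33.2, 33.2 and 33.4 FPKM in the vehicle libraries of 7 days, 21.7, 21.2 and 21.9 with VIC-1911, 17.9, 18.8 and 20.5 with olaparib and 19, 18.7 and 17.8 with the combination. All treated libraries lay under all vehicle libraries. The log2 fold changes were -0.67 ± 0.06, -0.81 ± 0.06 and -0.85 ± 0.06 (adjusted p = 2.7e-11, 5.5e-13 and 8.4e-14, edgeR), under the 2-fold limit. After 2 days VIC-1911 had already lowered it, from 21.9, 24.2 and 23.7 FPKM to 18.3, 17.5 and 19.2, a log2 change of -0.38 ± 0.08 (adjusted p = 5.2e-04, edgeR).

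Against vehicle, a gene was called where the adjusted p was under 0.05 and the fold change at least 1.5 after 2 days or 2 after 7 days. By this rule VIC-1911 at 7 days called 5 of the 158 transcripts higher and 12 lower, where 3.46% of all genes tested were called higher and 3.43% lower. Olaparib called 9 higher and 10 lower, where 3.63% of all genes were called higher and 3.53% lower. The combination called 14 higher and 8 lower, where 4.55% of all genes were called higher and 4% lower, and its 8 lower calls became 5 without vehicle library 2 and 13 without combination library 2. In percent of the 158, these are 3.16 higher and 7.59 lower with VIC-1911, 5.7 and 6.33 with olaparib, and 8.86 and 5.06 with the combination. In all 3 comparisons 9 transcripts were called, in the same direction each time, 4 higher and 5 lower, where 1.6% of all genes were called higher and 1.96% lower in all 3. The 5 include LINC01133 and LINC01512, which the rule took through vehicle. The 4 include LINC00844 and LINC01356, which the rule took through treated libraries alone. Taken in the same way were LINC00920, LINC01164 and LINC01134, called higher with olaparib and the combination, and LINC01136, called higher with olaparib. No transcript was called higher in one of the 3 comparisons and lower in another. All 3 comparisons share the vehicle libraries, so their lists are not independent.

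**Figure D1:**
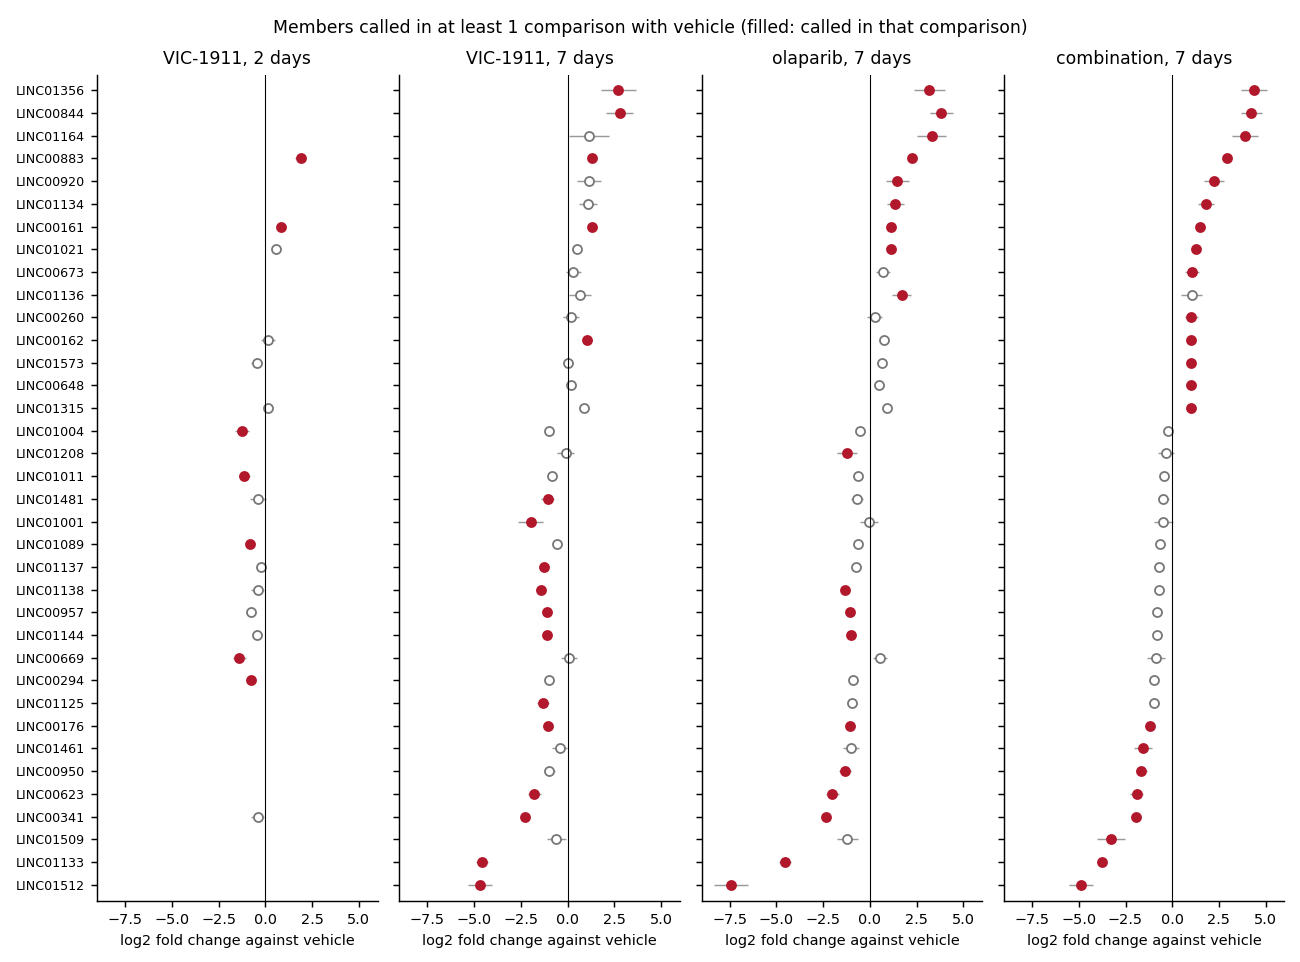
The 36 transcripts called in at least 1 comparison with vehicle, in the order of their log2 fold change with the combination; the horizontal axes give the edgeR log2 fold change against the vehicle of the time point in 4 panels (VIC-1911 at 2 days, then VIC-1911, olaparib and the combination at 7 days), bars are 1 SE and filled points mark a call. Of the 36, 9 are filled in all 3 panels of 7 days; the value of -7.43 for LINC01512 with olaparib is fitted against 0 counts and is no bound.

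The transcripts called lower in all 3 comparisons at 7 days were LINC01133, LINC01512, LINC00341, LINC00623 and LINC00176. LINC01133, an RNA studied in several carcinomas, had 3.58, 3.41 and 3.69 FPKM in the vehicle libraries, or 78, 88 and 37 counts. It had 0.139, 0.109 and 0.176 FPKM with VIC-1911, 0.134, 0.198 and 0.103 with olaparib and 0.267, 0.232 and 0.265 with the combination. Every treated library was far under every vehicle library, with at most 7 counts. As a description, these are log2 fold changes of -4.60 ± 0.33, -4.57 ± 0.32 and -3.75 ± 0.28. LINC01512, on chromosome 6 between 43891028 and 43938207, had 15, 34 and 12 counts in the vehicle libraries, 1, 1 and 0 with VIC-1911, 0 in all 3 olaparib libraries and 0, 1 and 1 with the combination. Scaled to the library sizes, it was 29.8-fold lower with VIC-1911 (95% interval 7.91 to 252), at least 21.5-fold lower with olaparib, where 3 counts over the group were taken as the limit of a count of 0, and 33.9-fold lower with the combination (95% interval 8.98 to 286). These intervals cover counting error only.

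LINC00341, which the current annotation makes part of SYNE3, a gene for a nuclear envelope protein, had 1.39, 1.45 and 1.16 FPKM in vehicle and between 0.252 and 0.409 in the 9 treated libraries of 7 days. The log2 fold changes were -2.27 ± 0.24 with VIC-1911, -2.36 ± 0.24 with olaparib and -1.96 ± 0.22 with the combination (adjusted p = 2.7e-09, 1.1e-09 and 7.7e-09, edgeR). LINC00623, named after its values were seen because its mean stayed under 0.5 FPKM, fell by 1.79 to 2.02 on the log2 scale, and it shares a near-identical stretch with LINC00869, so its reads may be split. LINC00176, now annotated within C20orf204, had 0.573, 0.499 and 0.463 FPKM in vehicle and between 0.147 and 0.323 in the treated libraries. Its log2 fold changes were -1.04, -1.05 and -1.21, close to the limit. Without vehicle library 1 or VIC-1911 library 2 the VIC-1911 value was -0.97 or -0.77, and without vehicle library 1 or olaparib library 3 the olaparib value was -0.97 or -0.83, under the fold limit each time.

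**Figure D2:**
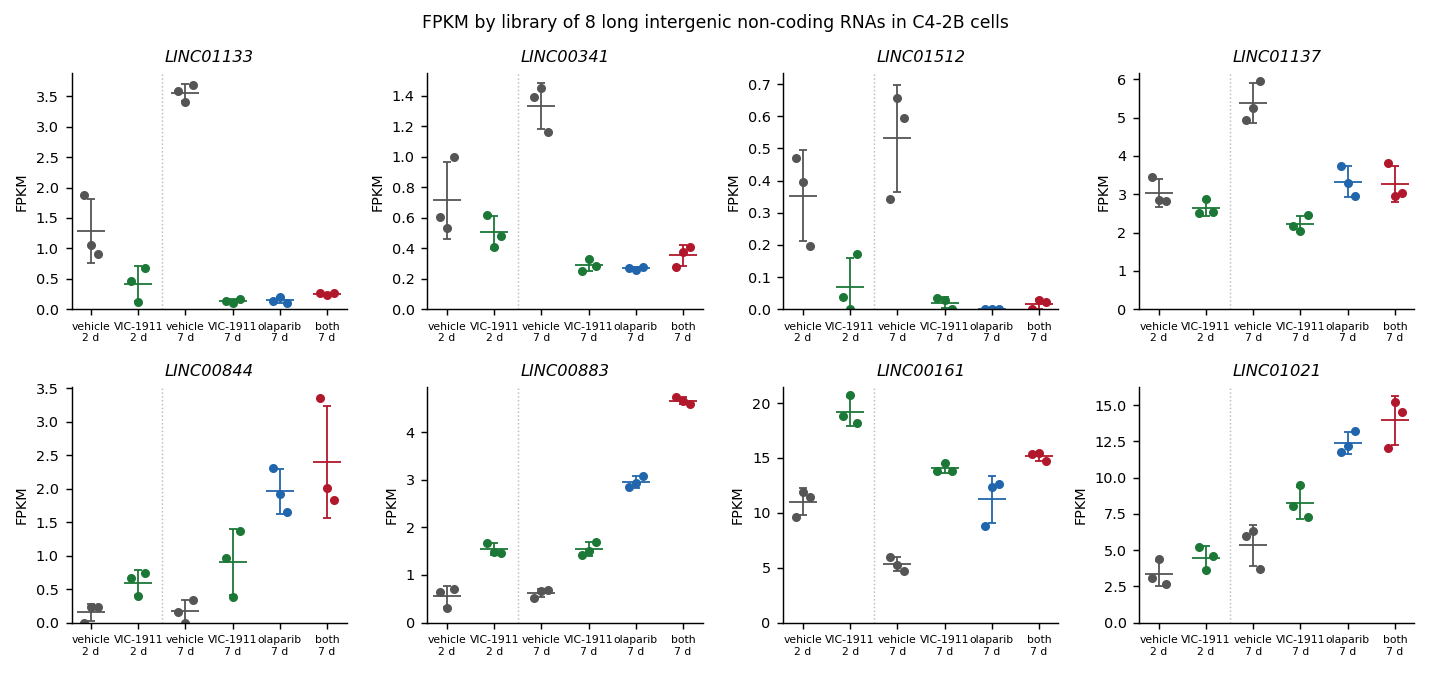
FPKM (vertical axes, linear, each from 0) of 8 transcripts in each of the 18 libraries, with points for libraries, a dash for the group mean and bars of 1 SD (n = 3); the dotted line separates the 2-day from the 7-day table, which were normalised separately. LINC01133, LINC00341, LINC01512 and LINC01137 were lower in all 9 treated libraries of 7 days than in the vehicle libraries, and LINC00844, LINC00883, LINC00161 and LINC01021 were higher in all 9.

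Several more transcripts were called lower with VIC-1911 or olaparib alone. LINC01137, known as LITATS1, an RNA that restrains TGF-β signaling, had 4.95, 5.25 and 5.96 FPKM in vehicle, 2.16, 2.05 and 2.46 with VIC-1911, 3.74, 3.29 and 2.94 with olaparib and 3.8, 2.96 and 3.03 with the combination. VIC-1911 alone gave the lowest libraries. The log2 fold change was -1.28 ± 0.15 with VIC-1911 (adjusted p = 2.9e-08, edgeR), and it fell by 0.74 and 0.68 with olaparib and the combination, under the limit. LINC01138 had 1.33, 2 and 2.1 FPKM in vehicle, between 0.655 and 0.683 with VIC-1911, between 0.682 and 0.893 with olaparib and between 0.846 and 1.32 with the combination. It fell by 1.44 ± 0.24 and 1.31 ± 0.23 on the log2 scale with the single drugs (adjusted p = 6.6e-06 and 1.8e-05, edgeR), and by 0.69 ± 0.21 with the combination (adjusted p = 0.0055, edgeR). LINC01125, which overlaps ACTR1B, fell by 1.31 ± 0.30 with VIC-1911 (adjusted p = 5.9e-04, edgeR). LINC01208 had between 1 and 8 counts in the olaparib libraries and 4 to 16 in vehicle, with a log2 change of -1.24 ± 0.53. It reached 10 counts in no olaparib library, so the rule favoured this fall, which is a description. Without any 1 of vehicle library 1, vehicle library 2 or the olaparib libraries the call of LINC01208 was lost, at values from -1.54 to -1.07 and adjusted p from 0.0643 to 0.166 (edgeR).

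LINC00957, LINC01144 and LINC01481, known as PRANCR and described in epidermal progenitor cells, lay close to the 2-fold limit with VIC-1911, at log2 fold changes of -1.12, -1.10 and -1.07. LINC00957 was at -0.93 without VIC-1911 library 2, LINC01144 at -0.94 without VIC-1911 library 3, and LINC01481 at -0.83 without vehicle library 1 and at -0.995 without VIC-1911 library 2, so none of these 3 calls held without each library. With olaparib LINC00957 fell by 1.09 and LINC01144 by 1.04, but by 0.98 without olaparib library 3 and 0.96 without olaparib library 1. LINC00957 overlaps RASA4CP and LINC01481 overlaps CNOT2, and the counts of both are uncertain. LINC00950, now annotated within TMEM8B, fell by 1.34 ± 0.30 with olaparib and by 1.65 ± 0.31 with the combination (adjusted p = 4.5e-04 and 4.5e-05, edgeR). With VIC-1911 its log2 fold change was -0.99 ± 0.29.

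The transcripts called higher in all 3 comparisons at 7 days were LINC00161, LINC00844, LINC00883 and LINC01356. LINC00844, described as an androgen-induced transcript of the prostate and carrying the AGAACA letters printed above, had 0.159, 0 and 0.344 FPKM in vehicle, or 2, 0 and 2 counts. It had 0.96, 0.378 and 1.37 FPKM with VIC-1911, 2.32, 1.92 and 1.65 with olaparib and 3.36, 2.01 and 1.83 with the combination. The groups did not overlap with vehicle, and the olaparib and combination libraries lay above all VIC-1911 libraries. The log2 fold changes were 2.80 ± 0.72, 3.81 ± 0.61 and 4.23 ± 0.57, a description, since the rule took LINC00844 through treated libraries alone. The summed luminal markers moved the other way, as given above. At 2 days LINC00844 had 0, 1 and 1 counts in vehicle and 3, 2 and 5 with VIC-1911, too few for the test.

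LINC00883, known as DUBR, on chromosome 3 between 107240692 and 107326964, rose in every comparison with vehicle. It had 0.521, 0.659 and 0.678 FPKM in the vehicle libraries of 7 days, 1.42, 1.5 and 1.7 with VIC-1911, 2.85, 2.93 and 3.08 with olaparib and 4.74, 4.66 and 4.6 with the combination. The groups stood in this order with no overlap between neighbours. The log2 fold changes were 1.30 ± 0.15, 2.26 ± 0.13 and 2.93 ± 0.12 (adjusted p = 1.2e-08, 6.5e-15 and 1.6e-18, edgeR). The combination lay above VIC-1911 by 1.63 ± 0.10 and above olaparib by 0.66 ± 0.09 on the log2 scale (adjusted p = 1.2e-13 and 8.3e-06, edgeR).

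LINC00161 had 6.01, 5.27 and 4.69 FPKM in the vehicle libraries of 7 days, 13.8, 14.5 and 13.8 with VIC-1911, 8.77, 12.4 and 12.6 with olaparib and 15.4, 15.4 and 14.7 with the combination. Its lowest treated library, olaparib library 1, was still above the highest vehicle library. Its log2 fold changes were 1.32 ± 0.12, 1.11 ± 0.12 and 1.47 ± 0.12 (adjusted p = 2.4e-10, 1.2e-08 and 9.5e-12, edgeR). LINC01356 was near 0 in vehicle, with 0, 2 and 0 counts, and had 2, 8 and 5 counts with VIC-1911, 1, 13 and 9 with olaparib and 24, 8 and 24 with the combination. Scaled to the library sizes, the ratio to vehicle was 7.67 (95% interval 1.78 to 69.2), 10.9 (2.69 to 95.2) and 25.2 (6.66 to 213), counting error alone. These ratios are a description, since the rule took LINC01356 through olaparib and combination libraries. The VIC-1911 call of LINC01356 was lost without vehicle library 1 (log2 fold change 2.10, adjusted p = 0.0758, edgeR) and without VIC-1911 library 2 (2.21, adjusted p = 0.0901, edgeR).

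LINC01021, known as PURPL, a p53-induced RNA that lowers p53 levels, rose with each treatment at 7 days. It had 5.96, 6.34 and 3.69 FPKM in vehicle, 8, 9.45 and 7.29 with VIC-1911, 11.7, 12.2 and 13.2 with olaparib and 12, 15.2 and 14.5 with the combination. All treated libraries were above all vehicle libraries, and the olaparib and combination libraries above those of VIC-1911. The log2 fold changes were 0.49 ± 0.14, 1.13 ± 0.13 and 1.29 ± 0.13 (adjusted p = 0.0049, 3.2e-08 and 1.1e-09, edgeR), so that olaparib and the combination passed the fold limit and VIC-1911 did not. Without vehicle library 3 the olaparib value was 0.99 (adjusted p = 3.49e-07, edgeR), just under 2-fold. After 2 days of VIC-1911 it had 5.23, 3.61 and 4.58 FPKM against 3.1, 4.35 and 2.69 in vehicle, with overlap, and a log2 fold change of 0.58 ± 0.24 that did not pass the test (adjusted p = 0.10, edgeR). The other gene on the DNA damage and p53 list, NORAD, rose by no more than 0.12.

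LINC00920, described as a target of ERG in prostate cancer, had 5, 5 and 0 counts in vehicle, 4, 13 and 5 with VIC-1911, 1, 16 and 14 with olaparib and 19, 22 and 13 with the combination. The log2 fold change was 1.47 ± 0.60 with olaparib and 2.21 ± 0.54 with the combination. Both are a description, since the rule took LINC00920 through treated libraries alone. The olaparib groups overlapped, and the call was lost without vehicle library 2 or 3 or olaparib library 2 or 3, at values from 1.18 to 1.60 and adjusted p from 0.0795 to 0.177. Of the 5 genes on the list described in prostate cancer or androgen signaling, LINC00304 did not have the counts to enter, and of the other 4, LINC00844 and LINC00920 were called higher with the combination, LINC01133 was called lower and LINC00963 fell under the fold limit.

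A further 5 transcripts were called higher and 2 lower with the combination but with neither drug alone, which is no test that the effects differed. The matching share over all genes was not counted, so these numbers only introduce the transcripts. LINC01573, known as NALT1 and lying 1794 bp from NOTCH1, had 6.7, 7.02 and 6.23 FPKM in vehicle and 14.5, 11.7 and 14.5 with the combination, a log2 change of 1.02 ± 0.15 (adjusted p = 8.2e-07, edgeR). LINC00648, LINC01315 and LINC00260 had log2 fold changes of 1.02, 1.00 and 1.03, and LINC00673, named after its values were seen, of 1.06. LINC00673 was at 0.84 without vehicle library 2 and at 0.86 without combination library 2. The calls of LINC01573, LINC00648, LINC01315 and LINC00260 lay at the limit. Without single libraries LINC01573 was between 0.958 and 0.996 (vehicle libraries 1 and 3, combination libraries 1 and 3), LINC00648 between 0.91 and 0.941 (vehicle library 1, combination libraries 2 and 3), LINC01315 between 0.924 and 0.995 (vehicle libraries 2 and 3, combination libraries 1 and 3) and LINC00260 between 0.855 and 0.969 (vehicle library 1, combination libraries 2 and 3). LINC00260 overlaps ATP2B4. LINC01461 fell by 1.57 ± 0.47. It reached 10 counts in no combination library, so the rule favoured this fall, which is a description. LINC01509 went from 11, 12 and 5 counts in vehicle to 0, 0 and 3 with the combination, 10.4-fold lower when scaled to the library sizes (95% interval 3.2 to 53.3, counting error alone). The rule took LINC01509 through vehicle and VIC-1911 libraries alone, so this fall is a description. LINC00162, known as PICSAR and described in cutaneous squamous carcinoma, was called higher with VIC-1911 (1.05 ± 0.24) and with the combination (1.02 ± 0.23) but not with olaparib (0.75 ± 0.25). Its calls were lost without vehicle library 3 (0.94 and 0.91), without VIC-1911 library 1 (0.92) and without combination library 1 (0.91).

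Below the fold limit, VIC-1911 at 7 days moved more of the transcripts down than up. At an adjusted p under 0.05 with no limit on the fold, 11 were higher and 45 lower, where 26.6% of all genes tested were higher and 25.8% lower. In percent of the 158 this is 6.96 higher and 28.5 lower. Olaparib had 17 higher and 38 lower, where 28.1% of all genes were higher and 25.9% lower. The combination had 26 higher and 28 lower, where 28.6% of all genes were higher and 28% lower. The share lower with VIC-1911 was near that of all genes, and the share higher was under that of all genes.

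The median log2 fold change of the 158 was -0.284 with VIC-1911, -0.12 with olaparib and -0.02 with the combination, against -0.005, 0.01 and 0.005 for all genes tested. Without vehicle library 2 these medians were -0.19, -0.061 and 0.049, so the sign of the last rests on that library. With VIC-1911, 107 of the 158 (67.7%) had a log2 fold change under 0, against 50.6% of all genes. These counts are descriptions and no test of the group was made. The shares moved with the count, and the part of depth in them was not tested. Among transcripts with a mean of 50 to 500 counts, 11.3% were higher and 47.2% lower with VIC-1911 (n = 53), against 22.4% and 27.6% of all genes in that range. Among those under 50 counts, 4.17% were higher and 15.6% lower (n = 96), against 10.9% and 17.0% of all genes.

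Other non-coding classes gave values close to these. Of 371 antisense RNAs, taken by name, 7.82% were higher and 24.0% lower with VIC-1911 at 7 days, with a median of -0.189. Of 340 genes named LOC and a number, 7.65% were higher and 23.8% lower, with a median of -0.275. With the combination 15.9% of either class was higher and 19.1% lower, against 16.5% and 17.7% of the 158.

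**Figure D3:**
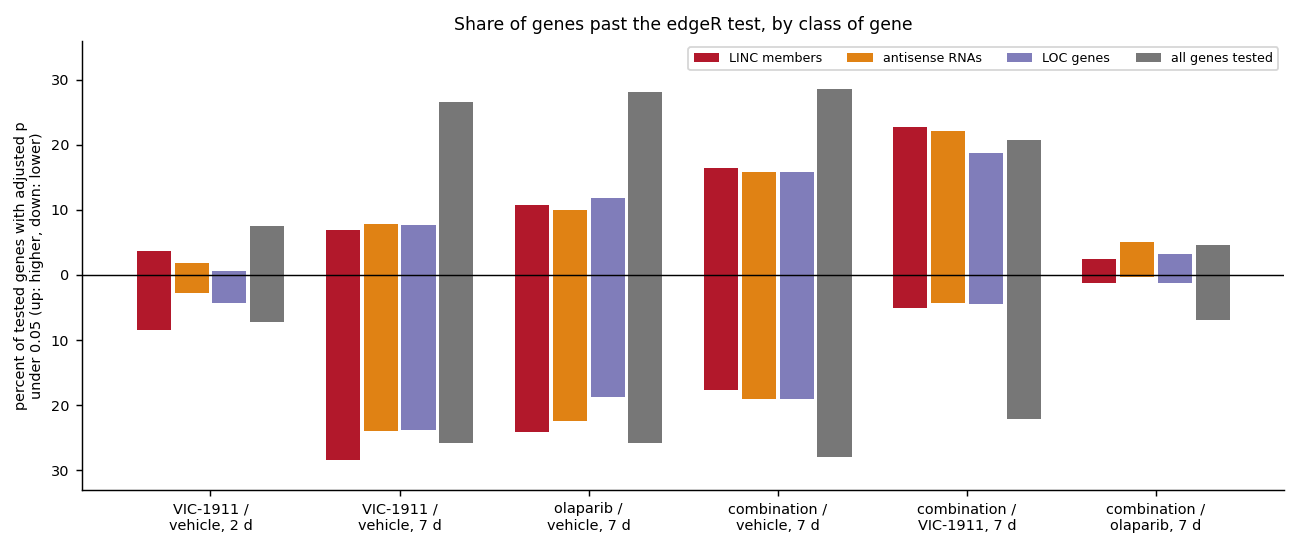
Percent of the tested genes of each class with an adjusted p under 0.05 (edgeR, no fold limit), higher upward and lower downward from 0, in 6 comparisons, for the LINC transcripts, antisense RNAs, LOC genes and all genes tested. With VIC-1911 at 7 days the bars of the 3 non-coding classes reach between 6.96% and 7.82% upward and between 23.8% and 28.5% downward, against 26.6% and 25.8% for all genes.

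The same shift was seen library by library. Among the 82 transcripts with at least 10 counts in all 7-day libraries, the median log2 difference from the vehicle mean was -0.248, -0.172 and -0.264 in the VIC-1911 libraries, -0.024, -0.105 and -0.084 in the olaparib libraries and -0.004, 0.036 and 0.043 in the combination libraries. The vehicle libraries themselves lay at -0.023, 0.051 and -0.025. The 3 VIC-1911 libraries were thus lower than all other libraries, olaparib libraries 2 and 3 lay under all vehicle libraries, and the combination libraries lay among the vehicle libraries. The median of 12167 genes of all kinds was between 0.024 and 0.033 with VIC-1911, between 0.058 and 0.072 with olaparib and between 0.041 and 0.065 with the combination. At 2 days the 53 transcripts lay at 0.066, -0.015 and -0.034 in vehicle and at -0.084, -0.163 and -0.040 with VIC-1911.

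**Figure D4:**
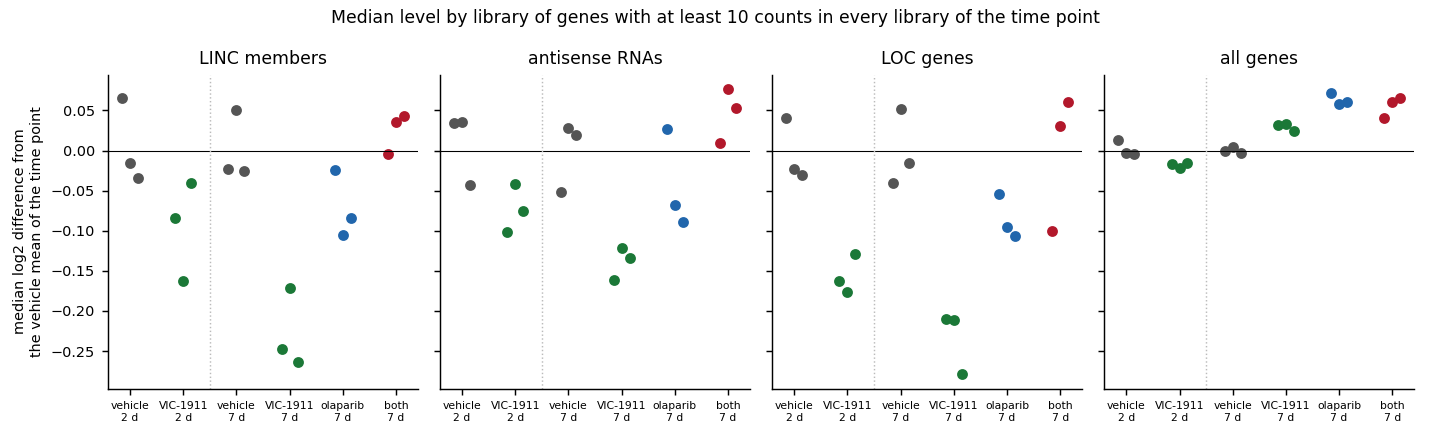
Median log2 difference from the vehicle mean of the same time point (vertical axis) in each of the 18 libraries, over genes with at least 10 counts in every library of the time point, in 4 panels for the LINC transcripts, antisense RNAs, LOC genes and all genes. The VIC-1911 libraries of 7 days lie between -0.264 and -0.172 for the LINC transcripts, and the combination libraries between -0.004 and 0.043.

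After 2 days VIC-1911 called 2 of the 83 tested transcripts higher and 5 lower, where 0.825% of all genes tested were called higher and 1.33% lower, and the 5 lower calls became 3 without vehicle library 2 or without VIC-1911 library 1. At the adjusted p alone 3 were higher and 7 lower, where 7.5% of all genes were higher and 7.19% lower, and the 7 became 4 without vehicle library 2. The median log2 fold change was -0.113, against -0.003 for all genes, and -0.062 without vehicle library 2. The transcripts called higher were LINC00883, from 0.641, 0.3 and 0.703 FPKM to 1.68, 1.47 and 1.46 (log2 fold change 1.88 ± 0.29, adjusted p = 1.1e-05, edgeR), and LINC00161, from 9.61, 11.9 and 11.4 to 18.8, 20.7 and 18.1 (0.84 ± 0.14, adjusted p = 3.6e-05, edgeR). No VIC-1911 library of these 2 genes overlapped with vehicle, and both were also called higher at 7 days.

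The transcripts called lower after 2 days were LINC00669, LINC01011, LINC01004, LINC01089 and LINC00294. LINC00669, the host gene of miR-924, had 1.3, 1.26 and 1.18 FPKM in vehicle and 0.326, 0.599 and 0.681 with VIC-1911, a log2 change of -1.40 ± 0.34 (adjusted p = 0.0037, edgeR). LINC01011 went from 1.37, 1.39 and 1.43 FPKM to 0.592, 0.641 and 0.902 (-1.13 ± 0.29, adjusted p = 0.0052, edgeR). LINC01004, named after its values were seen, had a log2 fold change of -1.23 ± 0.38, which did not pass the test without vehicle library 2 (-1.13, adjusted p = 0.0623, edgeR) or VIC-1911 library 2 (-0.84, adjusted p = 0.113, edgeR). LINC01089, which overlaps SETD1B, and LINC00294 had log2 fold changes of -0.81 ± 0.19 and -0.75 ± 0.20. Without VIC-1911 library 1 these were both -0.58, and LINC00294 without vehicle library 2 was -0.62, under the limit or past an adjusted p of 0.05. Except LINC00669, at 0.06 ± 0.42, these transcripts were also lower with VIC-1911 at 7 days at the adjusted p alone, with log2 fold changes of -0.85 for LINC01011, -0.97 for LINC01004, -0.60 for LINC01089 and -0.99 for LINC00294.

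The combination was then compared with each drug. Against VIC-1911 it called 10 transcripts higher and 1 lower, where 2.23% of all genes were called higher and 1.82% lower. At the adjusted p alone 36 were higher and 8 lower, where 20.7% of all genes were higher and 22.2% lower, and the 8 became 5 without VIC-1911 library 3, combination library 1 or combination library 3. Against olaparib it called 0 higher and 1 lower, where 0.291% of all genes were called higher and 0.0902% lower. At the adjusted p alone 4 were higher and 2 lower by edgeR, where 4.55% of all genes were higher and 6.95% lower. The 4 became 2 without olaparib library 1 or 2, the 2 became 0 without olaparib library 2 or 3 or combination library 1, and 1 transcript was called higher without combination library 2. The median log2 fold change of the 158 was 0.239 against VIC-1911 and 0.103 against olaparib, against 0.008 and 0.001 for all genes.

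Of the transcripts called higher with the combination than with VIC-1911, LINC00883 is given above. LINC00663 had 0.167, 0.525 and 0.338 FPKM with VIC-1911 and 0.988, 0.976 and 1.08 with the combination, a log2 change of 1.56 ± 0.29 (adjusted p = 6.8e-05, edgeR), and vehicle had 0.64, 0.409 and 0.86. LINC01164 had 0, 3 and 4 counts with VIC-1911 and 29, 16 and 11 with the combination, a log2 change of 2.73 ± 0.58, and its vehicle libraries had 1, 2 and 0 counts. Against vehicle LINC01164 was 11.4-fold higher with olaparib (95% interval 3.59 to 57.6) and 16.8-fold higher with the combination (5.46 to 84). The rule took LINC01164 through olaparib and combination libraries alone, so all these values are a description. LINC00844 was higher by 1.43 ± 0.37 on the log2 scale (adjusted p = 0.0024, edgeR). LINC01356 was higher by 1.66 ± 0.46, a description, since the rule took it through olaparib and combination libraries. LINC01535 was higher by 1.04 ± 0.25, but by 0.96 without VIC-1911 library 2, 0.99 without VIC-1911 library 3 and 0.92 without combination library 3. It shares a stretch with LINC00665, which had far more counts, so the counts of LINC01535 are uncertain. The 1 transcript called lower than with VIC-1911 was LINC01509, with 18 counts in all with VIC-1911 and 3 with the combination, 6.82-fold lower (95% interval 1.99 to 36.1), and no transcript was called lower without VIC-1911 library 2 or combination library 1 (in the second case LINC01509 was -1.98 on the log2 scale, adjusted p = 0.0635, edgeR). This fall too is a description, since the rule took LINC01509 through vehicle and VIC-1911 libraries alone.

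LINC00669 was the 1 transcript called between the combination and olaparib. It had 0.0711, 0.463 and 0.435 FPKM with olaparib and 0.101, 0.185 and 0.164 with the combination, so the groups overlapped, and the log2 fold change was -1.41 ± 0.42. It reached 10 counts in no combination library, so the rule favoured this fall, which is a description. The call was lost without olaparib library 2 or 3 or combination library 1 or 3, with values from -1.51 to -1.16 and adjusted p from 0.0643 to 0.144 (edgeR).

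The interaction of the drugs is the effect of VIC-1911 in the presence of olaparib minus its effect in vehicle, on the log2 scale, and was tested at the adjusted p alone. Here 38 transcripts were past the test with a value above 0 and 8 with a value under 0, where 21% of all genes were above and 22.9% under. The 8 became 4 without vehicle library 2 and 5 without vehicle library 3 or VIC-1911 library 3. In percent of the 158 this is 24.1 above and 5.06 under. The 38 include LINC01133 and LINC01512, and the 8 include LINC00844 and LINC00669. The values of these transcripts are a description. The interaction holds the VIC-1911 value with a minus sign, so a choice by values above 0 favours falls with VIC-1911, and the following medians are a description. All 38 of the first had a log2 fold change under 0 with VIC-1911 alone, with a median of -0.71, and the median of the combination against olaparib in them was 0.22. Their median against vehicle was -0.5 with olaparib and -0.24 with the combination. For the 8 of the second the medians were 0.95 with VIC-1911 alone and 0.17 in the presence of olaparib. Among antisense RNAs 22.9% were above and 4.31% under, and among LOC genes 19.7% and 6.18%.

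By p the first transcripts after LINC01133 were LINC00963, LINC00662, LINC00341, LINC01137 and LINC01138, with interaction values of 0.62 ± 0.08, 1.25 ± 0.17, 2.66 ± 0.39, 1.34 ± 0.21 and 2.06 ± 0.34. LINC01133 had an interaction value of 5.41 ± 0.68, a description since the rule used its vehicle level, and had at most 7 counts in any treated library. LINC00662 had 6.3, 7.5 and 5.8 FPKM in vehicle, 3.31, 3.88 and 4.37 with VIC-1911, 4.99, 4.05 and 5.42 with olaparib and 6.31, 6.22 and 6.69 with the combination. The single drugs were lower than vehicle and the combination was not. Its log2 fold changes were -0.81 ± 0.12 with VIC-1911, -0.49 ± 0.12 with olaparib and -0.06 ± 0.11 with the combination (adjusted p = 2.0e-06, 8.5e-04 and 0.66, edgeR), and the combination was above olaparib by 0.43 ± 0.12 (adjusted p = 0.014, edgeR). LINC00341 and LINC01137 had -2.27 and -1.28 with VIC-1911 alone, and 0.40 ± 0.30 and 0.06 ± 0.15 for the combination against olaparib. LINC01138 had -1.44 and 0.62 ± 0.24. On the other side, LINC00998, the gene of SMIM30, had 0.50 with VIC-1911 alone and -0.02 ± 0.06 for the combination against olaparib, an interaction of -0.51 ± 0.09 (adjusted p = 3.6e-05, edgeR).

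**Figure D5:**
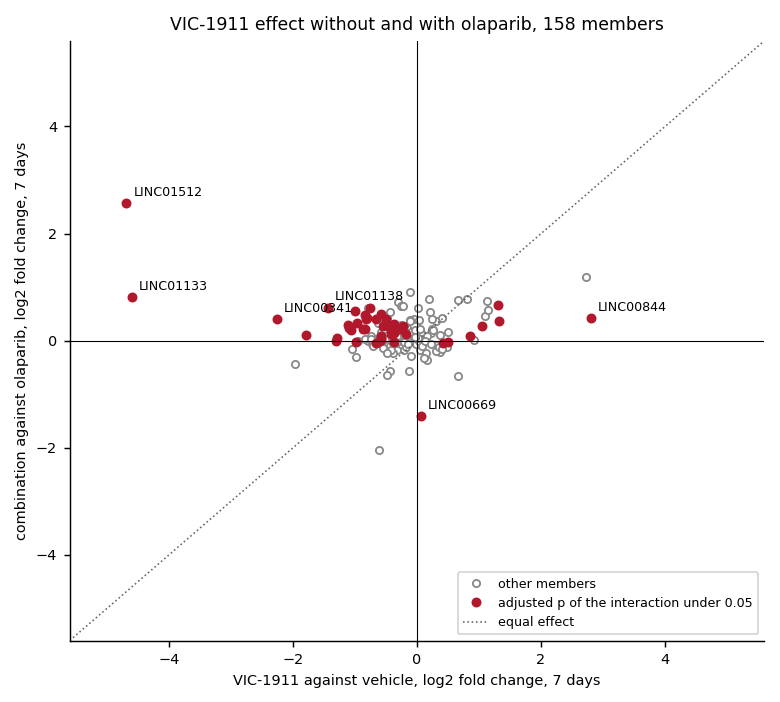
Log2 fold change of the 158 transcripts for VIC-1911 against vehicle (horizontal) and for the combination against olaparib (vertical), both at 7 days, with filled points for an adjusted p of the interaction under 0.05 and a dotted line of equal effects. The filled points lie mostly left of 0 and above the line, with 38 above and 8 under it, and the place of LINC01512 rests on 0 to 2 counts in each treated group.

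The effect of VIC-1911 at 7 days less that at 2 days was tested for 134 of the transcripts, among 13832 genes. Of these 3 were past the test above 0 and 10 under it, where 14.6% of all genes were above and 14.2% under. The 3 became 5 without vehicle library 1 of 7 days, and 1 without vehicle library 3 or VIC-1911 library 1 or 2 of 2 days, or vehicle library 2 or VIC-1911 library 2 of 7 days. By p the first, LINC01133 apart, were LINC00998 (0.52 ± 0.10), LINC00662 (-0.98 ± 0.22), LINC00341 (-1.87 ± 0.44), LINC01000 (-0.57 ± 0.14) and LINC01278 (-0.40 ± 0.10). LINC00998 had 49.3, 46.2 and 48.1 FPKM in vehicle and 46.2, 43.2 and 49.5 with VIC-1911 after 2 days, a log2 fold change of -0.04 ± 0.08, and 0.50 at 7 days. LINC00662 had 0.15 ± 0.18 at 2 days and -0.81 at 7 days. LINC01133 had 9, 6 and 5 counts in vehicle and 5, 1 and 6 with VIC-1911 after 2 days, and its time difference of -3.22 ± 0.74 is a description, since it was taken through the 7-day vehicle libraries. LINC01000 had 5.44, 7.07 and 5.89 FPKM in the vehicle libraries of 7 days and 4.44, 4.5 and 3.89 with VIC-1911, a log2 change of -0.58 ± 0.09 (adjusted p = 2.9e-06, edgeR), and -0.03 ± 0.10 at 2 days. With olaparib and the combination LINC01000 stood at -0.03 and 0.00. LINC00669 had a time difference of 1.45 ± 0.54 (adjusted p = 0.036, edgeR), from its fall at 2 days to 0.06 ± 0.42 at 7 days.

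The nearest protein-coding gene was set beside each transcript annotated as lncRNA that had one tested. There were 87 such pairs at 7 days, with a median gap of 9291 bp, and 21 within 1000 bp. The log2 fold changes had the same sign in 57 of 87 pairs with VIC-1911, in 48 with olaparib and in 48 with the combination. Over the 87 pairs Pearson's r was 0.356, 0.375 and 0.301 and Spearman's rho 0.144, 0.103 and 0.132, a description over genes measured in the same libraries. At 2 days 20 of 45 pairs had the same sign. Among the transcripts of these pairs that were called, the neighbour had the same sign for 3 of 6 with VIC-1911, 3 of 8 with olaparib and 4 of 9 with the combination, and the pairs named next are examples. LINC01512 lies 104541 bp from VEGFA, the gene of the angiogenic growth factor, which had log2 fold changes of -2.24, -2.21 and -1.95. LINC01137 starts 137 bp from ZC3H12A, which encodes the RNase Regnase-1, with -0.97, -0.73 and -0.69. LINC00294 lies 2587 bp from TCP11L1, with -0.94, -0.96 and -1.05 beside its own -0.99, -0.93 and -0.95. LINC01509 lies 18267 bp from KLF4, a transcription factor gene, with -0.78, -0.97 and -1.49. LINC01136, now BTG2-DT and named after its values were seen, starts 194 bp from BTG2, an antiproliferative p53 target, which had 1.45, 2.27 and 2.65. LINC01136 itself had 0.66 ± 0.60, 1.70 ± 0.51 and 1.04 ± 0.55, called with olaparib alone. These values are a description, since the rule took LINC01136 through treated libraries alone. Without vehicle library 2 the call was lost (1.36, adjusted p = 0.0558, edgeR). LINC01356 went against its neighbour SLC16A1, the gene of a lactate transporter 61204 bp away, which had -0.77, -0.83 and -0.81.

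Non-coding RNAs with an established name of another kind were read beside these. Of 39 listed, 28 were tested at 7 days. VIC-1911 called 1 of them higher, namely PCAT1 at 1.13, and 0 lower, where 3.46% of all genes were called higher and 3.43% lower. At the adjusted p alone 5 were higher and 8 lower by edgeR, where 26.6% of all genes were higher and 25.8% lower. Olaparib called 0, where 3.63% of all genes were called higher and 3.53% lower. It had 9 higher and 10 lower at the adjusted p alone, where 28.1% of all genes were higher and 25.9% lower. The combination called 3 higher (DLEU2 at 1.15, PCAT1 at 1.08 and TP53TG1 at 1.05) and 1 lower, the prostate transcript PCA3 at -1.73. Of all genes 4.55% were called higher and 4% lower. With the combination 8 of the 28 were higher and 7 lower at the adjusted p alone, where 28.6% of all genes were higher and 28% lower. MALAT1, an abundant nuclear RNA, was 1.02 higher on the log2 scale with the combination than with VIC-1911. Their interaction values were past the test above 0 for 9 and under 0 for 4 of the 28, where 21% and 22.9% of all genes were.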

How the data were processed

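Poly(A) RNA of C4-2B cells was measured in 18 libraries. The authors trimmed reads with Trimmomatic, aligned them to hg38 with STAR 2.6.0 (version per the submitters' processing notes) and counted them per gene. They deposited raw counts and FPKM values in 1 table each per time point, normalised separately, and the 2-day FPKM rest on more reads than the 2-day counts. The strand setting and the treatment of reads with several positions are not given in the sources used here.

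The count test was the quasi-likelihood test of edgeR 4.0.16 (R 4.3.3, TMM factors), for genes that reached 10 counts in 3 or more of its libraries, with 1 fit for 6 libraries of 2 days, 1 for 12 of 7 days and 1 for 12 vehicle and VIC-1911 libraries of both times. p-values were adjusted by Benjamini-Hochberg over all genes tested. Samples were grouped by title. The biological coefficient of variation was 3.44%, 4.43% and 3.99%, and total counts (3245273 to 19684208) set the precision. Replicate numbers did not pair libraries: correlations of same-numbered libraries ranged from -0.0356 to 0.111. Alternatives were RLE scaling, no filter on counts, DESeq2 1.42.0, limma 3.58.1 on log2(FPKM + 0.1) and log2(FPKM + 1), a mean of at least 1 FPKM, the compared groups alone, a replicate block and each library left out. The code was tested on simulated data. Genes were named by a rule: called against vehicle with at least 0.5 FPKM and no overlap, the 8 highest, up to 6 by p in the other comparisons, and listed genes. The genes and lists were chosen with earlier results of these data known.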

Additional observations from a re-analysis of the deposited data

Results flagged for a closer look

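The interaction test of the drugs at 7 days was passed by 46 of the 158 transcripts, 38 above 0 and 8 under it, where 21% of all genes were above and 22.9% under. Apart from LINC01133, LINC01512, LINC00844 and LINC00669, the effect of VIC-1911 on these differed by a test between cells without and with olaparib. The smallest p belonged to LINC00963 at 0.62, LINC00662 at 1.25, LINC00341 at 2.66, LINC01137 at 1.34 and LINC01138 at 2.06 on the log2 scale. LINC01133, at 5.41, and LINC01512 were taken through the vehicle libraries of 7 days alone, so their values under this and the next test are a description. LINC00844 was taken through treated libraries alone, and its interaction value is a description. The same holds for LINC00669, which reached 10 counts in no combination library.

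The effect of VIC-1911 differed between 7 and 2 days by a test for 13 of 134 transcripts, 3 above 0 and 10 under it, where 14.6% of all genes were above and 14.2% under. The smallest p belonged to LINC00998 at 0.52, LINC00662 at -0.98, LINC00341 at -1.87, LINC01000 at -0.57 and LINC01278 at -0.40 on the log2 scale, with LINC01133 at -3.22. LINC00662 and LINC00341 appear under both tests, which share the VIC-1911 and vehicle libraries of 7 days. The groups hold 3 libraries each, too few to test single libraries as outliers.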

How the results depend on the processing

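Of 76 calls of single transcripts, 25 held under each alternative run for them and each left-out library, 54 held without each library in turn, and 0 of 969 alternative values changed sign. The 76 hold interaction and time values, which carry no fold limit. These were not run on the FPKM scales or with 2 groups alone. The 25 also include values of LINC01133, and those of LINC00844 with olaparib and with the combination, which are a description. The log2(FPKM + 1) scale lost 49 calls, log2(FPKM + 0.1) 11 and DESeq2 5. A pseudocount of 1 lies above the median level of 0.923 FPKM and by construction draws low values together.

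Counts of calls moved as follows (higher, then lower). VIC-1911 at 2 days, 2 and 5, gave 1 and 1 by DESeq2, 4 higher with no filter and 1 lower on log2(FPKM + 1), and 3 to 7 lower without single libraries. At the adjusted p alone, 3 and 7, it gave 1 and 2 by DESeq2, 5 higher with no filter and 4 to 8 lower without single libraries. VIC-1911 at 7 days, 5 and 12, gave 1 and 1 on log2(FPKM + 1), 3 higher with its 2 groups alone and 7 lower at a mean of at least 1 FPKM. Olaparib, 9 and 10, gave 3 and 1 on log2(FPKM + 1), 4 higher with its 2 groups alone and 5 and 5 at 1 FPKM (11 higher at the adjusted p alone). The combination, 14 and 8, gave 4 and 1 on log2(FPKM + 1), 8 and 3 at 1 FPKM (17 higher at the adjusted p alone) and 5 to 13 lower without single libraries. Against VIC-1911 it gave 6 higher on log2(FPKM + 0.1), 1 and 0 on log2(FPKM + 1), 4 and 0 at 1 FPKM, 0 lower with the 2 groups alone, 0 to 1 lower without single libraries and, at the adjusted p alone, 5 to 7 lower. Against olaparib the 1 lower call became 0 by DESeq2, on both FPKM scales, with the 2 groups alone and at 1 FPKM, and 0 to 1 transcripts were called in either direction without single libraries. At the adjusted p alone it gave 2 to 6 higher and 0 to 3 lower without single libraries, 2 higher on log2(FPKM + 0.1), 0 lower on both FPKM scales and 1 lower by DESeq2, with the 2 groups alone and at 1 FPKM. The interaction gave 5 under 0 by DESeq2 and 4 to 8 without single libraries. The time difference gave 1 above 0 by DESeq2 and 1 to 5 without single libraries. Filters and left-out libraries lower the number of genes or samples by construction, and otherwise the cause was not tested.

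Vehicle library 2 of 7 days decided the sign of the median with the combination, which was 0.049 without it (range from -0.057 to 0.049 over the libraries left out). Without it VIC-1911 had 34 lower at the adjusted p alone, the combination 5 called lower and the interaction 4 under 0. With transcripts at 10 counts in all 12 libraries alone, an alternative chosen after seeing the data, calls were 2 and 4 with VIC-1911 (7 higher at the adjusted p alone), 3 and 3 with olaparib (9 higher), 6 and 1 with the combination (14 and 17), 2 and 0 against VIC-1911, 0 lower against olaparib (1 at the adjusted p alone) and 5 under 0 for the interaction.

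The replicate numbers did not pair the libraries. With a replicate block the calls of LINC00176 (-0.94) and LINC01208 (adjusted p = 0.0835) with olaparib were lost, and no count moved by over 1.5 times.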
